A study of Gallus gallus with 13 samples.

Results

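Kinesins and dyneins are motor proteins that walk along microtubules, and tubulins are the proteins from which microtubules are built. The kinesin, dynein and tubulin genes described here were the genes on a chicken Affymetrix array whose symbol begins with KIF, TUBA, TUBB, TUBG, DYNC or DYNL. The rule used the symbol alone and found 65 genes, served by 148 probe sets, among 13008 genes with a probe set of 1 symbol. Where a gene had several probe sets, the brightest on average stood for it. Of the 65 genes, 61 passed a filter on low signals and were tested, and KIF12, KIF20AL, KIF21A and TUBA8A did not pass it.

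Primary fibroblasts of White Leghorn chicken embryos at day 10, cultured at 41.5 °C and used at an early passage, were compared in 4 culture states, 13 arrays in all. Cycling cells (3 arrays) were collected in log phase in medium with 5% cosmic calf serum and insulin. Contact-inhibited cells (4 arrays) filled the dish completely and then received fresh medium with serum. Serum-starved cells (3 arrays) had been growing and were then washed and kept in medium with 0% serum. The fourth group (3 arrays), called confluent and starved here, filled the dish before the serum was withdrawn. The comparisons ask how microtubule motor and tubulin transcripts in the other 3 states, called arrested here, differ from those of cycling cells. Whether all cells of these cultures had stopped dividing was not measured here. The labels name the arrays biological replicates without saying whether they came from separate embryos, and they do not give the time spent confluent or without serum. The p-values therefore measure the spread between these cultures. In whole cultures, fewer cells of a kind and less RNA per cell cannot be told apart.

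As background, a dividing cell builds a spindle in which kinesins push the poles apart, move chromosomes, trim microtubule ends and set up the cut between daughter cells, and the genes for many of these kinesins are transcribed mainly in late cell cycle. Other kinesins carry vesicles, mitochondria and RNA outwards along microtubules in cells of every state, and cytoplasmic dynein 1 carries cargo back towards the centrosome. Kinesin-2 and dynein 2 carry material up and down the primary cilium, a single antenna that fibroblasts grow when they leave the cell cycle. Alpha and beta tubulin pair into the building block of the microtubule, and gamma tubulin starts new microtubules.

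The arrays held fibroblast transcripts throughout. All 13 fibroblast markers were on the array, with signals of 14423 to 21208 for COL1A1 and 13349 to 15527 for VIM over all arrays, while PDGFRA was dim at 24.7 to 76.8. The W-linked transcript HINTW, which only female birds carry, ranged from 2646 to 3358 among cycling cultures, with 1188 to 1311 for replicates 2 to 4 of the contact-inhibited ones. It lay at 84.3 in contact-inhibited replicate 1, 428 in serum-starved replicate 1 and 0 to 3.08 in the other starved arrays, so it moved with the groups. The 10 muscle markers measured summed to 41088 to 75369 in cycling, 1303 to 10244 in contact-inhibited and 1434 to 1918 in starved arrays, mainly through ACTC1, and the 6 epithelial markers measured summed to 4900 to 5697 in cycling and 151 to 1495 in the other arrays, mainly through KRT7 and KRT14, with EPCAM, CDH1 and CLDN3 at 0 to 18.7. The 10 neuron markers measured summed to 456 to 506 in cycling, 553 to 860 in contact-inhibited and 416 to 581 in starved arrays. DCX gave 7.36 to 24.2 in cycling and 130.6 to 356 in contact-inhibited arrays, while SYP gave 39.25 to 46.6 in cycling and 4.3 to 14.1 in arrested arrays. The 8 macrophage, 7 endothelial and 3 erythroid markers measured summed to 582 to 865, 349 to 629 and 213 to 283. The actin 3'/5' signal ratio was 2.41 in cycling replicate 3 and 1.27 to 1.89 in the other arrays. The part of these differences in the results was not tested, and values without cycling replicate 3 or contact-inhibited replicate 1 are given beside the results those arrays moved most.

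Compared with cycling cells, the genes that moved were mainly kinesins of the spindle and tubulins. Most transport kinesins and most dynein 1 genes gave no call, as did most probe sets of the array. A gene was called when limma's moderated two-sided test gave a Benjamini-Hochberg adjusted p under 0.05 over 28270 probe sets. In contact-inhibited cells 21 of 61 genes fell and 7 rose, where 34.8% of all tested probe sets were called, 16% lower and 18.8% higher. In serum-starved cells 13 fell and 2 rose, where 16.7% of all probe sets were called, 6.53% lower and 10.1% higher. In confluent and starved cells 18 fell and 9 rose, where 29.7% were called, 12.1% lower and 17.5% higher. Changes are differences in log2(signal + 16), a scale that understates changes at low signal, and each ± or SE is a standard error from the fit. The median change of all tested probe sets was 0.07, 0.05 and 0.05 in the 3 comparisons, and that of the 61 genes was -0.20, -0.06 and -0.03. Of the 61 genes, 10 fell in all 3 arrested groups (KIF11, KIF15, KIF18B, KIF23, KIF2C, KIF4B, TUBA1A, TUBA3E, TUBB4B and TUBG1), 2 rose in all 3 (KIF16B and DYNC2H1), 26 were called in none and none was called in opposite directions. These 3 comparisons share the cycling arrays. The share of all tested probe sets called in all 3 or in none was not counted. The counts over the 3 groups therefore have no background to be set against. Without cycling replicate 3 and contact-inhibited replicate 1 together, 30, 21 and 29 genes were called, and the share of all probe sets was not counted there either.

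**Figure D1:**
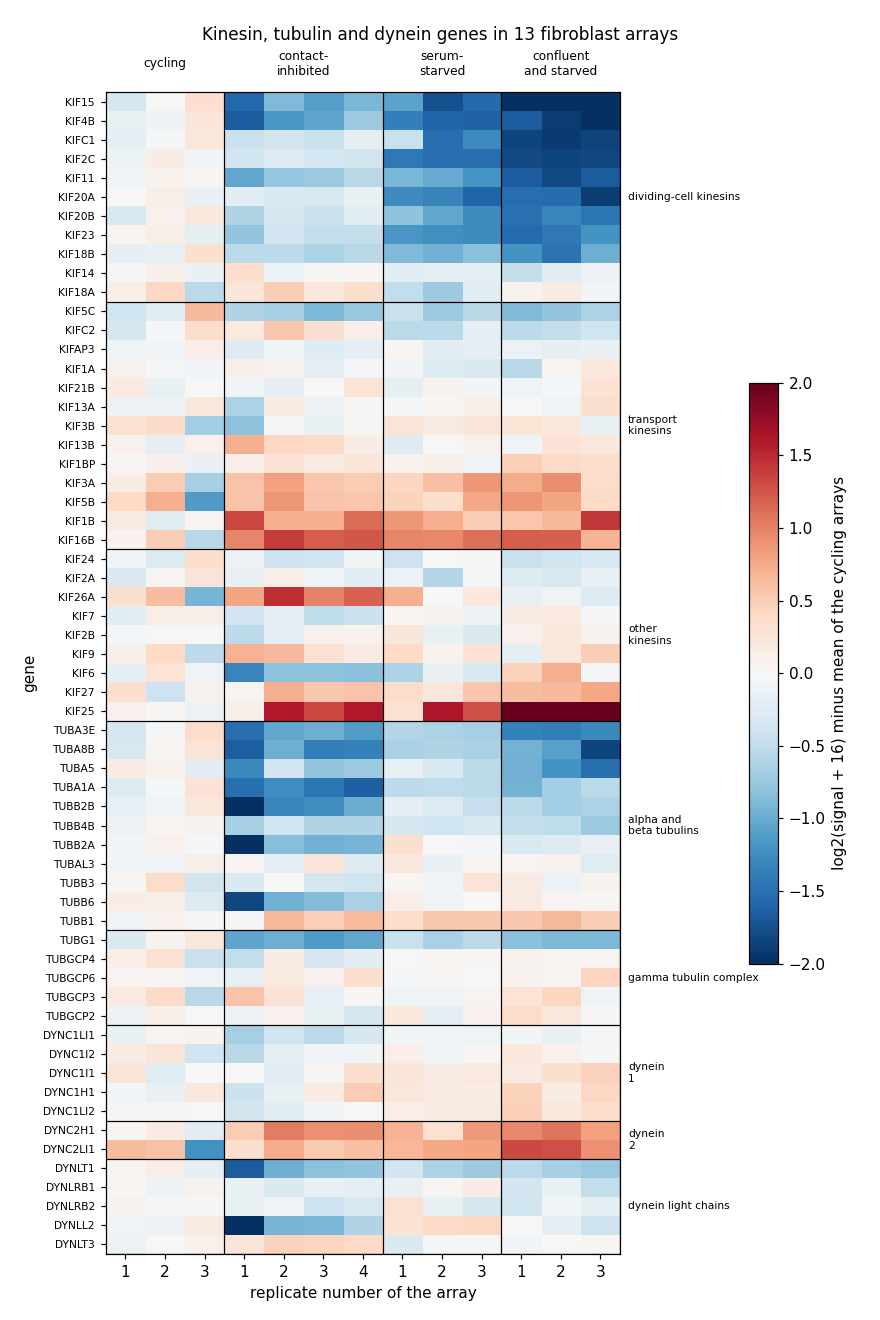
Each row is 1 of the 61 tested genes, grouped by role, and each column 1 of the 13 arrays, grouped by culture state; colour gives log2(signal + 16) minus the mean of the cycling arrays, with the scale ending at -2 and 2. Of the 11 dividing-cell kinesins, 9 are blue in all starved arrays and mostly darkest in the confluent and starved ones, most tubulins that fell are bluest in the contact-inhibited arrays, and the transport kinesins are mostly pale.

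The dividing-cell kinesins, 11 genes that all passed the filter, were mostly lower in the starved groups and lower for about as many genes as not in contact-inhibited cells. In contact-inhibited cells 6 of 11 fell, with a median change of -0.40. In serum-starved cells 9 of 11 fell, with a median of -1.08, and in confluent and starved cells 9 of 11 fell, with a median of -1.66. None rose. Of all tested probe sets 16%, 6.53% and 12.1% were called lower in the 3 groups. The mean of the 11 genes on each array, relative to the cycling mean, ran from -0.11 to 0.07 in cycling, from -0.61 to -0.34 in contact-inhibited, from -1.17 to -0.91 in serum-starved and from -1.41 to -1.39 in confluent and starved arrays. These 4 ranges do not overlap. Without cycling replicate 3 and contact-inhibited replicate 1, the counts of genes that fell were 6, 10 and 9. The share of all probe sets was not counted for that fit.

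KIF11, the motor that slides spindle microtubules apart so that the poles separate, gave signals of 427, 479 and 466 in the cycling arrays, 214, 262, 267 and 307 in the contact-inhibited arrays, 236, 219.9 and 193 in the serum-starved arrays, and 133, 119.8 and 132 in the confluent and starved arrays. The cycling arrays were highest and the confluent and starved arrays lowest, both clear of all others. KIF11 fell by 0.77 in contact-inhibited cells (SE 0.13, adjusted p = 0.000627), by 1.03 in serum-starved cells (SE 0.14, adjusted p = 0.000313) and by 1.71 in confluent and starved cells (SE 0.14, adjusted p = 2.60e-06), folds of 1.71, 2.04 and 3.28. KIF15, which helps KIF11 to keep the spindle bipolar, gave 288, 374 and 470.1 in the cycling arrays, 114, 193, 165 and 189.9 in the contact-inhibited arrays, 168, 97.8 and 115 in the serum-starved arrays, and 66.1, 68.9 and 68.8 in the confluent and starved arrays. Its confluent and starved arrays lay within a narrow band under all others. KIF15 showed the largest fall among the 61 genes in confluent and starved cells, -2.20 ± 0.23 (adjusted p = 1.33e-05), after -1.12 ± 0.21 and -1.47 ± 0.23 in contact-inhibited and serum-starved cells (adjusted p = 0.00117 and 0.000654). KIF4B, a chromokinesin of the family that binds chromosome arms and the central spindle, gave 1027, 1069 and 1359 in the cycling arrays, 348, 503, 539.9 and 683 in the contact-inhibited arrays, 433, 367 and 361 in the serum-starved arrays, and 349, 296 and 255 in the confluent and starved arrays. Every arrested array was under every cycling array, and the changes were -1.16 ± 0.20, -1.53 ± 0.21 and -1.89 ± 0.21 (adjusted p = 0.000544, 0.000279 and 2.78e-05). For these 3 genes the calls against cycling cells held under every alternative setting.

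Several kinesins of mid and late mitosis were lowest in the starved cultures. KIF20A, which brings the Aurora B complex to the central spindle, gave 849, 937 and 778 in the cycling arrays, 726, 684, 687 and 771 in the contact-inhibited arrays, 346, 327 and 271 in the serum-starved arrays, and 287, 283 and 216 in the confluent and starved arrays. Contact-inhibited arrays lay just below the cycling arrays, and the starved arrays far below both. Its change was -0.25 ± 0.13 in contact-inhibited cells and did not pass (adjusted p = 0.178), while it fell by 1.40 in serum-starved cells (SE 0.14, adjusted p = 2.67e-05) and by 1.66 in confluent and starved cells (SE 0.14, adjusted p = 3.37e-06). KIF2C, which takes apart microtubules at centromeres, gave 478, 571 and 496 in the cycling arrays, 390.1, 428, 399 and 394 in the contact-inhibited arrays, 180.1, 171 and 168 in the serum-starved arrays, and 136, 132 and 134 in the confluent and starved arrays. The same steps separate its groups, without overlap between any of them. KIF2C fell by 0.34 in contact-inhibited cells (SE 0.11, adjusted p = 0.0280) and further in the starved groups, with changes of -1.49 and -1.82 (adjusted p = 3.10e-06 and 3.17e-07). The contact-inhibited call was lost without cycling replicate 2 or contact-inhibited replicate 3 or 4 (adjusted p 0.0541 to 0.128), and the mean of all KIF2C probe sets gave 0.04 there (adjusted p = 0.857); it was also lost when only the compared arrays were fitted (adjusted p = 0.0929). KIF23, the motor part of centralspindlin, which organises the cleavage furrow, gave 1371, 1434 and 1158 in the cycling arrays, 751, 1010.5, 930.1 and 944 in the contact-inhibited arrays, 581, 555 and 543 in the serum-starved arrays, and 444, 480.3 and 565 in the confluent and starved arrays. Its arrested arrays all lay under its cycling arrays, with the starved ones lowest, and the changes were -0.53 ± 0.13, -1.21 ± 0.14 and -1.39 ± 0.14 (adjusted p = 0.00645, 7.10e-05 and 1.22e-05).

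Of the remaining dividing-cell kinesins, KIFC1, a motor that moves to minus ends and focuses spindle poles, gave 154, 172 and 211 in the cycling arrays, 126, 135, 125 and 155 in the contact-inhibited arrays, 126, 51.2 and 63.9 in the serum-starved arrays, and 37.9, 35.6 and 37.5 in the confluent and starved arrays. The confluent and starved arrays were far under the others, and 1 of the serum-starved arrays lay as high as the contact-inhibited ones. KIFC1 fell, with changes of -1.08 and -1.87 in the starved groups (adjusted p = 0.00521 and 5.15e-05) and had a change of -0.36 ± 0.21 in contact-inhibited cells (adjusted p = 0.205). KIF18B, which acts on the ends of astral microtubules, gave 198, 204 and 288 in the cycling arrays, 151, 153, 140.3 and 149 in the contact-inhibited arrays, 115, 108 and 119.6 in the serum-starved arrays, and 90.4, 71.4 and 107 in the confluent and starved arrays. It fell, with changes of -0.56, -0.90 and -1.21 in the 3 arrested groups (adjusted p = 0.0114, 0.00219 and 0.000123), with no overlap with the cycling arrays. KIF20B, a motor of the late division furrow, fell, with changes of -1.03 and -1.42 in the starved groups (adjusted p = 0.00107 and 5.17e-05) and had a change of -0.40 ± 0.16 in contact-inhibited cells without passing (adjusted p = 0.0694).

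KIF18A and KIF14 were not called against cycling cells. KIF18A, which damps the movement of chromosomes on the spindle, gave 177, 222 and 106 in the cycling arrays, 195, 234, 190.3 and 212 in the contact-inhibited arrays, 111, 91.4 and 136 in the serum-starved arrays, and 171, 183 and 155 in the confluent and starved arrays. Its cycling arrays spread widely and overlapped those of all other groups, and its changes were 0.33, -0.48 and 0.06 (adjusted p = 0.231, 0.147 and 0.868). KIF14, a motor of cytokinesis, was dim, at 20.3 to 47.9 over all arrays, with changes of 0.07, -0.20 and -0.28. Another KIF14 probe set fell, with changes of -0.64 and -0.69 in the starved groups (adjusted p = 0.00739 and 0.00256). Probe sets also differed for KIF20A: a second probe set rose by 0.90 in contact-inhibited cells (adjusted p = 0.00757) and had changes of 0.57 and 0.48 in the starved groups (adjusted p = 0.126 and 0.151). With the mean of all its probe sets, the KIF20A call in serum-starved cells was lost, with a change of -0.41 (adjusted p = 0.0932).

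**Figure D2:**
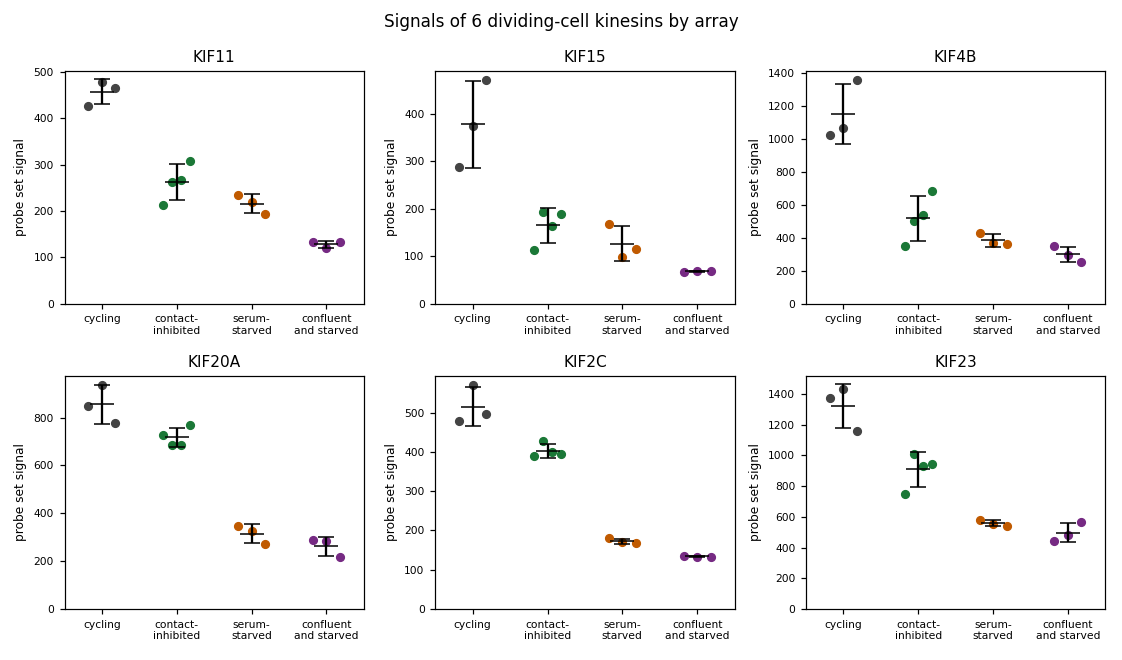
Signal of 6 dividing-cell kinesins on each array, on linear axes from 0; points are arrays, long bars the group mean and short bars 1 SD. KIF11, KIF15 and KIF4B are well below the cycling arrays in contact-inhibited cells, while KIF20A, KIF2C and KIF23 drop further in the starved arrays.

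Genes that work with these kinesins were counted from a list of spindle and cytokinesis partners, of which 26 were measured and tested. In contact-inhibited cells 14 fell and 1 rose, with a median of -0.38. In serum-starved cells 21 fell and none rose, with a median of -1.23, and in confluent and starved cells 23 fell and none rose, with a median of -1.50. Of all tested probe sets 16%, 6.53% and 12.1% were called lower in the 3 groups, and 18.8%, 10.1% and 17.5% higher. AURKB, the Aurora B kinase that KIF20A carries, fell, with changes of -0.93, -1.95 and -2.56 in the 3 groups (adjusted p = 5.66e-05, 5.71e-07 and 2.90e-08). RACGAP1, the centralspindlin partner of KIF23 and named for that after its values were seen, had a change of -0.24 in contact-inhibited cells (adjusted p = 0.128) and fell, with changes of -1.31 and -1.42 in the starved groups (adjusted p = 1.30e-05 and 3.57e-06). TPX2, which holds KIF11 and KIF15 on the spindle, fell, with changes of -0.33, -1.72 and -2.06 (adjusted p = 0.0404, 1.37e-06 and 1.66e-07). INCENP, which holds Aurora B in its complex, fell, with changes of -1.24, -0.98 and -1.37 (adjusted p = 5.37e-05, 0.00148 and 5.93e-05). CDC20, which triggers the separation of sister chromatids, fell, with changes of -0.75, -2.16 and -2.74 (adjusted p = 0.00151, 1.64e-06 and 1.28e-07), and CDK1, the kinase of entry into mitosis, had changes of -0.95, -1.40 and -1.94 (adjusted p = 8.54e-05, 1.68e-05 and 6.32e-07). ASPM, a spindle pole protein, named after its value was seen, was the gene that rose in contact-inhibited cells, by 0.71 (adjusted p = 0.0321), and it fell by 0.81 in confluent and starved cells (adjusted p = 0.0290).

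By count and by median, alpha and beta tubulins fell most in contact-inhibited cells, a different order from that of the dividing-cell kinesins. Of 12 genes 11 were tested. In contact-inhibited cells 8 of 11 fell and 1 rose, with a median change of -1.08. In serum-starved cells 3 fell, with a median of -0.31, and in confluent and starved cells 6 fell and 1 rose, with a median of -0.58. Of all tested probe sets 16%, 6.53% and 12.1% were called lower in the 3 groups, and 18.8%, 10.1% and 17.5% higher. The falls in contact-inhibited and in confluent and starved cells include TUBA5, whose probe sets disagreed and for which no direction is given below. The gene that rose was TUBB1, whose calls were lost under several alternatives. Per array, the mean of the 11 genes relative to the cycling mean was -1.18 in contact-inhibited replicate 1. It was -0.73 to -0.61 in contact-inhibited replicates 2 to 4, -0.22 to -0.12 in serum-starved and -0.58 to -0.41 in confluent and starved arrays. TUBA3E and TUBB4B fell further in confluent and starved cells (-1.34 and -0.58) than in contact-inhibited cells (-1.16 and -0.56).

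TUBA1A, a widely used alpha tubulin, gave 9424, 11225 and 13854 in the cycling arrays, 3984, 4808, 4177 and 3665 in the contact-inhibited arrays, 7918, 8022 and 7843 in the serum-starved arrays, and 5901, 7059 and 7843 in the confluent and starved arrays. Contact-inhibited cultures were lowest, the starved ones lay between, and every arrested array was under every cycling array. TUBA1A fell by 1.45 in contact-inhibited cells (SE 0.13, adjusted p = 3.14e-06, a fold of 2.74), by 0.52 in serum-starved cells (SE 0.14, adjusted p = 0.0209) and by 0.72 in confluent and starved cells (SE 0.14, adjusted p = 0.00172). The serum-starved call was lost without cycling replicate 3 or serum-starved replicate 2 or 3 (adjusted p 0.057 to 0.0706). TUBB2B, a beta tubulin best known from neurons, gave 4026, 4284 and 5298 in the cycling arrays, 1123, 1788, 1898 and 2247 in the contact-inhibited arrays, 3988, 3727 and 3252 in the serum-starved arrays, and 3141, 2805 and 2913 in the confluent and starved arrays. Contact-inhibited arrays were again lowest and clear of the rest. TUBB2B fell by 1.39 in contact-inhibited cells (SE 0.18, adjusted p = 8.60e-05) and by 0.61 in confluent and starved cells (SE 0.20, adjusted p = 0.0335), and had a change of -0.30 ± 0.20 in serum-starved cells (adjusted p = 0.329). Its call in confluent and starved cells was lost without cycling replicate 2 or 3 or any of the 3 confluent and starved arrays (adjusted p 0.0514 to 0.0998).

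TUBB6, a beta tubulin of many non-neural cells, gave 5416, 5330.0 and 4068 in the cycling arrays, 1380.4, 2494, 2668 and 3124 in the contact-inhibited arrays, 5349, 4666 and 4936 in the serum-starved arrays, and 5574, 5099.9 and 4991 in the confluent and starved arrays. The contact-inhibited arrays stood alone below the other 3 groups, which overlap. TUBB6 fell by 1.07 in contact-inhibited cells (SE 0.21, adjusted p = 0.00147), with changes of 0.02 and 0.09 in the starved groups (adjusted p = 0.960 and 0.795). TUBB2A, a beta tubulin close to TUBB2B, gave 4029, 4459 and 4120.3 in the cycling arrays, 872, 2323, 2148 and 2207 in the contact-inhibited arrays, 5256, 4193 and 4106 in the serum-starved arrays, and 3409.8, 3505 and 3776 in the confluent and starved arrays. Lowest were the contact-inhibited arrays, replicate 1 far under the other 3, and the confluent and starved arrays lay a little under the cycling ones. TUBB2A fell by 1.25 in contact-inhibited cells (SE 0.26, adjusted p = 0.00226), a change of -0.91 without that array (adjusted p = 2e-05), and had changes of 0.10 and -0.24 in the starved groups (adjusted p = 0.854 and 0.559). TUBB4B, the beta tubulin also used in cilia, gave 5024, 5705 and 5741 in the cycling arrays, 3457, 4146, 3619 and 3622 in the contact-inhibited arrays, 4301, 4134 and 4378 in the serum-starved arrays, and 3900.0, 3852 and 3272 in the confluent and starved arrays. All arrested arrays were under all cycling arrays, and TUBB4B fell, with changes of -0.56, -0.36 and -0.58 (adjusted p = 0.000343, 0.0217 and 0.000637). The serum-starved call of TUBB4B was lost without cycling replicate 2 or 3 or serum-starved replicate 2 or 3 (adjusted p 0.0553 to 0.0789). In contact-inhibited replicate 1 the median difference of the 11 tubulins from the other 3 contact-inhibited arrays was -0.46, and that array held less of the W-linked HINTW than those 3.

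Among the other alpha tubulins, TUBA3E gave 374, 461 and 618 in the cycling arrays, 157, 222, 233 and 209.9 in the contact-inhibited arrays, 311, 301 and 295 in the serum-starved arrays, and 176, 172 and 184 in the confluent and starved arrays. It fell, with changes of -1.16, -0.62 and -1.34 (adjusted p = 0.000166, 0.0307 and 0.000122), with no overlap with the cycling arrays. The serum-starved call was lost without cycling replicate 2 or 3 or any of the 3 serum-starved arrays (adjusted p 0.0564 to 0.0995). TUBA8B gave 324, 425 and 489 in the cycling arrays, 119, 199, 146 and 149 in the contact-inhibited arrays, 253, 262 and 255 in the serum-starved arrays, and 204, 183 and 102 in the confluent and starved arrays. It fell, with changes of -1.34 and -1.29 in the 2 confluent groups (adjusted p = 0.000385 and 0.00113) and had a change of -0.63 in serum-starved cells (adjusted p = 0.0812). All its arrested arrays lay under all its cycling arrays, and the serum-starved change was called without confluent and starved replicate 3 (adjusted p = 0.036). TUBA5 gave 737, 700.2 and 562 in the cycling arrays, 261, 504, 375 and 395 in the contact-inhibited arrays, 597, 533 and 454 in the serum-starved arrays, and 331, 281 and 221 in the confluent and starved arrays. This TUBA5 probe set fell, with changes of -0.80 and -1.22 in the confluent groups (adjusted p = 0.00785 and 0.000977), while a second, dimmer TUBA5 probe set rose by 0.77 and 0.54 there (adjusted p = 0.00200 and 0.0283). With the mean of both the calls were lost (changes of -0.01 and -0.34, adjusted p = 0.951 and 0.105), so no direction is given for TUBA5. Tubulin genes are close in sequence, and probes can read more than 1 of them.

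TUBB3, the beta tubulin that marks neurons, was dim, with signals of 55.8, 75.8 and 38.0 in the cycling arrays, 41.2, 55.1, 39.4 and 37.8 in the contact-inhibited arrays, 56.6, 51.8 and 70.0 in the serum-starved arrays, and 63.2, 49.1 and 58.1 in the confluent and starved arrays. The groups overlap and it was not called (adjusted p = 0.266, 0.808 and 0.908). TUBAL3 was not called either, with changes of -0.04, 0.05 and -0.03. TUBB1, the beta tubulin of thrombocytes in birds and platelets in mammals, was dim at 39.7 to 77.0 and was the tubulin that rose, by 0.44 in contact-inhibited and 0.57 in confluent and starved cells (adjusted p = 0.0454 and 0.0225). The first call was lost without any 1 of 12 arrays (adjusted p 0.0519 to 0.118). The second was lost without cycling replicate 1 or confluent and starved replicate 1 or 2 (adjusted p 0.0522 to 0.0775), and both were lost under either other scaling (adjusted p 0.0517 to 0.139).

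**Figure D3:**
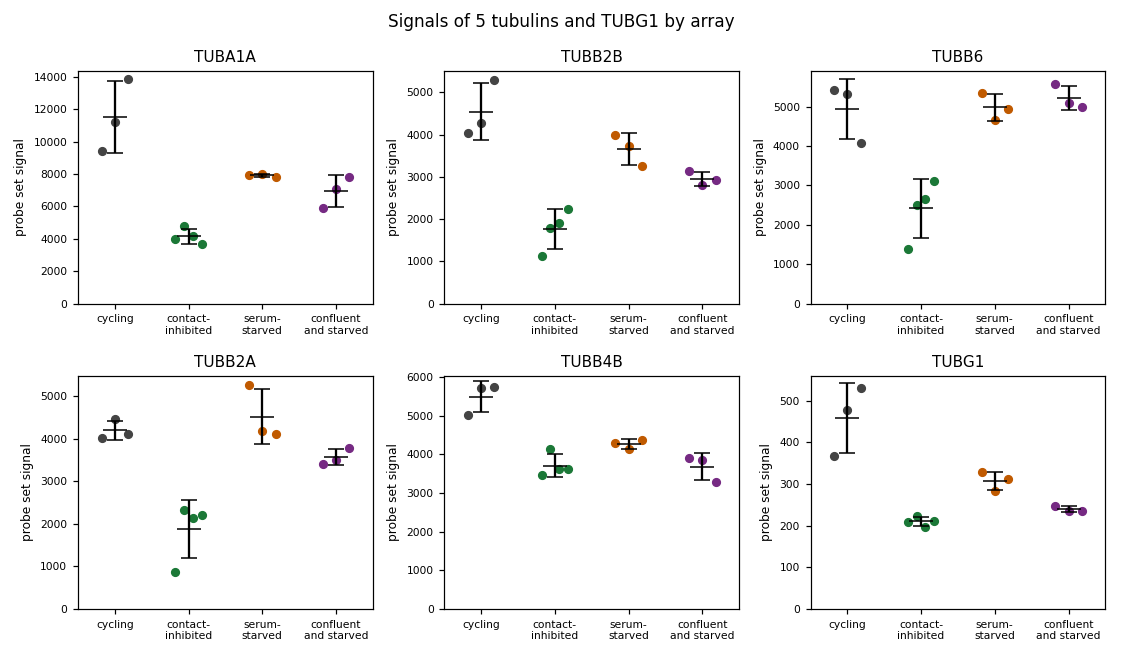
Signal of 5 tubulins and of TUBG1 on each array, on linear axes from 0; points are arrays, long bars the group mean and short bars 1 SD. The contact-inhibited arrays are lowest for TUBA1A, TUBB2B, TUBB6, TUBB2A and TUBG1, and the starved arrays of TUBB6 and TUBB2A lie near the cycling ones.

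Gamma tubulin itself fell in every arrested group while the proteins that build its ring gave no call on their brightest probe sets. TUBG1, the gamma tubulin of the nucleating ring, gave 367, 477 and 532 in the cycling arrays, 209.8, 223, 197 and 211 in the contact-inhibited arrays, 328, 285 and 311 in the serum-starved arrays, and 248, 236 and 236 in the confluent and starved arrays. The contact-inhibited arrays were lowest and all arrested arrays were under all cycling arrays. TUBG1 fell by 1.05 (SE 0.13, adjusted p = 5.39e-05), 0.54 (SE 0.14, adjusted p = 0.0198) and 0.88 (SE 0.14, adjusted p = 0.000517). The serum-starved call was lost without cycling replicate 2 or 3 or serum-starved replicate 2 or 3 (adjusted p 0.0591 to 0.0813). TUBGCP2, TUBGCP3, TUBGCP4 and TUBGCP6, the ring subunits measured, had changes of -0.23 to 0.20 and no call in any comparison with cycling cells, the nearest being 0.353 for TUBGCP2 in confluent and starved cells. A second TUBGCP4 probe set fell, with changes of -1.39, -0.96 and -1.01 in the 3 arrested groups (adjusted p = 0.000102, 0.00585 and 0.00234).

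Enzymes and proteins that fold, modify or bind tubulin were counted from a list of which 30 were tested. In contact-inhibited cells 10 fell and 4 rose, in serum-starved cells 2 fell and 3 rose, and in confluent and starved cells 9 fell and 3 rose, with medians of -0.25, -0.07 and -0.19. Of all tested probe sets 16%, 6.53% and 12.1% were called lower in the 3 groups, and 18.8%, 10.1% and 17.5% higher. TBCC, a cofactor of tubulin folding, rose by 0.59 in serum-starved cells (adjusted p = 0.0139). STMN3, of the stathmin family that binds free tubulin, rose by 1.92 in confluent and starved cells (adjusted p = 0.00179). TTLL1, which adds glutamate chains to tubulin, fell, with changes of -1.14, -0.91 and -1.18 in the 3 groups (adjusted p = 7.89e-05, 0.00183 and 0.000136). DCLK1, a kinase that binds microtubules, fell by 2.19 in contact-inhibited and 1.50 in confluent and starved cells (adjusted p = 9.30e-05 and 0.00314). MAP2, a protein that bundles microtubules in neuronal dendrites, rose by 1.33, 1.55 and 2.16 (adjusted p = 0.000866, 0.00112 and 4.73e-05), from a signal of 2.53 to 24.4 in cycling to 100.4 to 122 in confluent and starved arrays. On average its cycling signal was under the filter's signal of 22.7, so MAP2 entered the test only through the arrested groups where it was higher.

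Most transport kinesins gave no call on their brightest probe set. Of 14 genes 13 were tested. In contact-inhibited cells 1 fell and 2 rose, in serum-starved cells 1 rose, and in confluent and starved cells 1 fell and 3 rose, with median changes of 0.21, 0.03 and 0.11. These calls made up 23.1%, 7.69% and 30.8% of the 13 genes, where 34.8%, 16.7% and 29.7% of all tested probe sets were called. The genes that rose were KIF16B, KIF1B and KIF1BP, and the gene that fell was KIF5C. The class also counts KIF1BP, a protein that binds a kinesin, and KIFAP3, a cargo adaptor, which are not motors themselves.

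KIF16B, which moves early endosomes outwards, gave 41.6, 60.9 and 21.2 in the cycling arrays, 91.4, 128, 111 and 114 in the contact-inhibited arrays, 92.0, 90.8 and 101 in the serum-starved arrays, and 111, 109.7 and 71.7 in the confluent and starved arrays. All arrested arrays were above all cycling arrays. KIF16B rose by 1.21 in contact-inhibited cells (SE 0.22, adjusted p = 0.000792), by 1.01 in serum-starved cells (SE 0.23, adjusted p = 0.00899) and by 1.03 in confluent and starved cells (SE 0.23, adjusted p = 0.00468). Without cycling replicate 3, its lowest array, the rises were 0.93, 0.73 and 0.75 (adjusted p = 0.00155, 0.0205 and 0.0108). KIF1B, a carrier of mitochondria and vesicles, gave 412, 306 and 380.2 in the cycling arrays, 947, 611, 614 and 804 in the contact-inhibited arrays, 678, 611 and 519 in the serum-starved arrays, and 539, 581 and 1000.0 in the confluent and starved arrays. Its arrested arrays were also all above its cycling arrays. KIF1B rose by 0.98 in contact-inhibited and 0.87 in confluent and starved cells (adjusted p = 0.00353 and 0.0127) and had a change of 0.70 ± 0.23 in serum-starved cells without passing (adjusted p = 0.0571). The call in confluent and starved cells was lost without replicate 3 of that group (change 0.60, adjusted p = 0.0556), and the serum-starved change was called without that array (adjusted p = 0.0241) or contact-inhibited replicate 1 (adjusted p = 0.0385). The mean of all KIF1B probe sets also gave a serum-starved call (0.78, adjusted p = 0.0126). KIF1BP, named for its binding to KIF1B, gave 677, 717 and 608 in the cycling arrays, 716, 814, 759 and 793 in the contact-inhibited arrays, 702, 713 and 630.1 in the serum-starved arrays, and 935, 875 and 854 in the confluent and starved arrays. Its confluent and starved arrays were above all others. It rose by 0.41 in confluent and starved cells (adjusted p = 0.0153), a call lost without confluent and starved replicate 1 (change 0.37, adjusted p = 0.0609) or with arrays centred (0.31, adjusted p = 0.0667).

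KIF5C, the kinesin-1 heavy chain best known from neurons, gave 244, 275 and 522 in the cycling arrays, 212, 202, 167 and 186 in the contact-inhibited arrays, 236, 191 and 218 in the serum-starved arrays, and 169.8, 184 and 207 in the confluent and starved arrays. Cycling replicate 3 was far above the other arrays. KIF5C fell, with changes of -0.73 and -0.77 in contact-inhibited and in confluent and starved cells (adjusted p = 0.0152 and 0.0198), and the second call was lost without confluent and starved replicate 1 or 2 (adjusted p 0.057 to 0.0691). Without cycling replicate 3 the changes were -0.41 and -0.44 (adjusted p = 0.0446 and 0.0452). Averaging all KIF5C probe sets ended the contact-inhibited call (-0.24, adjusted p = 0.129), another KIF5C probe set giving 0.08 there, and both calls were lost when only the compared arrays were fitted (adjusted p = 0.06 and 0.0844). The serum-starved change, -0.58 ± 0.22 (adjusted p = 0.0969), was called without cycling replicate 1 (-0.78, adjusted p = 0.0361) and with the mean of all KIF5C probe sets (-0.45, adjusted p = 0.0257). KIF5B, the kinesin-1 heavy chain found in all tissues, gave 468, 589 and 151 in the cycling arrays, 528, 659, 525 and 522 in the contact-inhibited arrays, 484, 449 and 613 in the serum-starved arrays, and 655, 617 and 459.8 in the confluent and starved arrays. Cycling replicate 3 was far under every other array, and the remaining arrays of the 4 groups overlap. KIF5B had changes of 0.64 ± 0.33, 0.53 ± 0.35 and 0.68 ± 0.35 without a call (adjusted p = 0.151, 0.347 and 0.165), and without cycling replicate 3 the changes were 0.08, -0.04 and 0.12 (adjusted p = 0.78, 0.932 and 0.694). With cycling replicate 2 left out instead, KIF5B was called higher in contact-inhibited cells (change 1.01, adjusted p = 0.0296) and in confluent and starved cells (1.04, adjusted p = 0.0357).

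KIF3A, a motor subunit of the kinesin-2 that enters the cilium, gave 124, 164 and 63.3 in the cycling arrays, 172, 206, 169 and 163 in the contact-inhibited arrays, 154, 175 and 215 in the serum-starved arrays, and 195, 225 and 146 in the confluent and starved arrays. Cycling replicate 3 was again the lowest array, and the changes of 0.61, 0.63 and 0.68 did not pass (adjusted p = 0.0617, 0.110 and 0.0596). Without cycling replicate 3 they were 0.28, 0.30 and 0.34 (adjusted p = 0.287, 0.38 and 0.221). Without cycling replicate 2 KIF3A was called higher in all 3 groups (changes of 0.87, 0.89 and 0.94, adjusted p = 0.0135, 0.0293 and 0.0139), and without confluent and starved replicate 3 it was called in that group (0.84, adjusted p = 0.047). Its partners KIF3B and KIFAP3, the second motor and the cargo adaptor, had changes of -0.24 to 0.23 and no call. KIF13A, a carrier of recycling endosomes, gave 403, 403 and 513 in the cycling arrays, 276, 486, 401 and 445 in the contact-inhibited arrays, 426, 451 and 467 in the serum-starved arrays, and 439, 416 and 551 in the confluent and starved arrays. The groups overlap and it was not called (adjusted p = 0.576, 0.927 and 0.764). KIF13B, KIF1A, KIF21B and KIFC2 were not called against cycling cells either, with changes between -0.46 and 0.42. Less bright probe sets of several transport kinesins were called: in contact-inhibited cells those of KIF13B (0.47, adjusted p = 0.00677), KIF1A (0.41, adjusted p = 0.0267), KIFC2 (0.47, adjusted p = 0.0198) and KIF5B (0.67, adjusted p = 0.0156). In confluent and starved cells the same held for KIF1A (0.41, adjusted p = 0.043), KIF3A (0.90, adjusted p = 0.0292) and KIFC2 (-0.50, adjusted p = 0.0249). In cycling replicate 3, 5 of the 61 genes were at least 2-fold below cycling replicates 1 and 2, namely KIF3A, KIF3B, KIF5B, KIF26A and DYNC2LI1, and none of the 11 dividing-cell kinesins differed so far.

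Adaptors that link motors to cargo, with the dynactin complex that dynein 1 needs, were counted over 23 tested genes. In contact-inhibited cells 3 fell and 3 rose, in serum-starved cells 2 fell and 1 rose, and in confluent and starved cells 3 fell and 2 rose, with medians of -0.14, 0.11 and -0.04. The share of all tested probe sets called in either direction was 34.8%, 16.7% and 29.7% in the 3 groups. TRAK1, the adaptor that ties mitochondria to kinesin-1, fell, with changes of -1.70, -0.46 and -0.75 (adjusted p = 8.99e-07, 0.0385 and 0.00139). NDE1, a dynein regulator used in mitosis, fell by 1.33 in contact-inhibited and 0.79 in confluent and starved cells (adjusted p = 1.62e-05 and 0.00196). HOOK1, a dynein adaptor for endosomes, rose by 1.52, 0.89 and 1.40 (adjusted p = 0.000159, 0.0204 and 0.000658). DCTN6, a small dynactin subunit, fell by 0.81 in serum-starved and 0.59 in confluent and starved cells (adjusted p = 0.00241 and 0.0096).

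Dynein 2 is the motor that returns material from the tip of the cilium. Of its 2 genes 1, 1 and 2 rose in the 3 arrested groups. Of all tested probe sets 18.8%, 10.1% and 17.5% were called higher there. For dynein 2 the heavy chain rose in all 3 groups, and the light intermediate chain only in confluent and starved cells. DYNC2H1, its heavy chain, gave 35.7, 40.6 and 27.4 in the cycling arrays, 55.4, 86.7, 78.4 and 79.8 in the contact-inhibited arrays, 65.4, 46.2 and 75.0 in the serum-starved arrays, and 81.8, 89.4 and 73.1 in the confluent and starved arrays. All arrested arrays were above all cycling arrays. DYNC2H1 rose by 0.84 (SE 0.17, adjusted p = 0.00153), 0.62 (SE 0.18, adjusted p = 0.0294) and 0.95 (SE 0.18, adjusted p = 0.00142) in the 3 groups. The serum-starved call was lost without cycling replicate 1 or 3 or serum-starved replicate 1 or 3 (adjusted p 0.0556 to 0.138) and with arrays centred on their median (adjusted p = 0.0545). DYNC2LI1, its light intermediate chain, gave 221, 214 and 50.3 in the cycling arrays, 175, 242, 205 and 216 in the contact-inhibited arrays, 228, 246 and 251 in the serum-starved arrays, and 366, 360.1 and 272 in the confluent and starved arrays. The confluent and starved arrays were highest, and cycling replicate 3 was far below the rest. DYNC2LI1 rose by 1.17 in confluent and starved cells (SE 0.36, adjusted p = 0.0266), and by 0.57 (adjusted p = 0.00747) without cycling replicate 3 and contact-inhibited replicate 1. That call was lost without confluent and starved replicate 1 or 2 (adjusted p 0.0793 to 0.0807) or when only the compared arrays were fitted (adjusted p = 0.119). Its changes of 0.55 and 0.75 in the other groups did not pass (adjusted p = 0.237 and 0.188), and without cycling replicate 3 they were -0.06 and 0.14 (adjusted p = 0.817 and 0.664).

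Genes of intraflagellar transport and the BBSome, the cargo trains and coat of the cilium, were counted over 24 tested genes. In contact-inhibited cells 8 rose and 1 fell, in serum-starved cells 4 rose and 1 fell, and in confluent and starved cells 11 rose and 1 fell, with medians of 0.28, 0.38 and 0.55. Of all tested probe sets 18.8%, 10.1% and 17.5% were called higher in the 3 groups, and 16%, 6.53% and 12.1% lower. BBS4, a BBSome subunit, rose by 1.38, 0.60 and 1.00 (adjusted p = 1.62e-05, 0.0205 and 0.000466). TTC21B, a subunit of the train that dynein 2 pulls, rose by 0.93, 0.87 and 1.32 (adjusted p = 0.00345, 0.0167 and 0.000666). IFT46, a subunit of the outward train, rose by 0.61 in contact-inhibited and 0.64 in confluent and starved cells (adjusted p = 0.00151 and 0.00218). IFT122, another subunit of the returning train, rose by 0.96 and 1.08 in the starved groups (adjusted p = 0.00349 and 0.000805). IFT43, a small subunit of the returning train, was the gene that fell, by 1.28, 1.01 and 0.82 (adjusted p = 3.86e-06, 0.000116 and 0.000331). Markers of motile cilia, 7 measured, summed to 316 to 402 in cycling arrays and 377 to 553 in arrested arrays. The sums came mainly from DNAH9, with DNAH5 at 6.43 to 19.0. TEKT1 gave 10.97 to 30.4 in cycling and 0.03 to 15.83 in contact-inhibited arrays. It gave 44.94 to 72.76 in serum-starved and 61.81 to 76.73 in confluent and starved arrays. Of the 4 motile cilia markers tested, none was called in contact-inhibited cells. In serum-starved cells 1 was called higher, and in confluent and starved cells 2 were, with none lower. All contact-inhibited values of TEKT1 lay under the filter's signal, and its cycling values lay on both sides of it. TEKT1 could therefore pass the filter only through the starved groups where it was higher, which limits what a higher call there shows. The part of motile cilia markers in these results was not tested.

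The other kinesins, 9 of 11 tested, had no shared direction of change. In contact-inhibited cells 2 fell and 2 rose, in serum-starved cells none was called, and in confluent and starved cells 2 rose, with medians of -0.07, 0.01 and 0.12. These calls made up 44.4%, 0% and 22.2% of the 9 genes, where 34.8%, 16.7% and 29.7% of all tested probe sets were called. KIF25, a kinesin linked to the centrosome in human cells, gave 143, 137 and 122 in the cycling arrays, 145, 437, 362 and 436 in the contact-inhibited arrays, 169, 444 and 349 in the serum-starved arrays, and 616, 619.8 and 656 in the confluent and starved arrays. The confluent and starved arrays were far above the cycling arrays, and replicate 1 of both other arrested groups lay near the cycling level. KIF25 rose by 1.16 in contact-inhibited cells (SE 0.34, adjusted p = 0.0187) and by 2.11 in confluent and starved cells (SE 0.37, adjusted p = 0.000881), a fold of 4.32, and had a change of 1.07 ± 0.37 in serum-starved cells (adjusted p = 0.0635). The contact-inhibited call was lost without contact-inhibited replicate 2 or 4 (adjusted p 0.0525 to 0.0551), and serum-starved cells gained a call without contact-inhibited replicate 1 (adjusted p = 0.0102) or serum-starved replicate 1 (adjusted p = 0.0158). For HINTW the 2 arrays that lay near the cycling level stood on opposite sides of their groups. Contact-inhibited replicate 1 had 84.3, against 1188 to 1311 in its group. Serum-starved replicate 1 had 428, against 0 and 3.08 in its group. Any link to KIF25 was not tested.

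KIF26A, a kinesin-like protein that binds microtubules without the usual motor activity, gave 242, 303 and 92.6 in the cycling arrays, 342, 562, 398 and 454 in the contact-inhibited arrays, 326, 190.4 and 225 in the serum-starved arrays, and 172, 182 and 158 in the confluent and starved arrays. Its contact-inhibited arrays were highest. KIF26A rose by 1.11 in contact-inhibited cells (SE 0.31, adjusted p = 0.0125), with changes of 0.31 and -0.15 in the starved groups (adjusted p = 0.571 and 0.759). Without cycling replicate 3, which was low, the rise was 0.64 (adjusted p = 0.0333), and a second KIF26A probe set gave 0.29 (adjusted p = 0.221). KIF6, a kinesin tied to motile cilia, was dim, at 26.7, 43.1 and 30.5 in the cycling arrays, 3.61, 11.7, 11.8 and 11.5 in the contact-inhibited arrays, 15.7, 28.8 and 23.7 in the serum-starved arrays, and 51.4, 65.0 and 31.8 in the confluent and starved arrays. Contact-inhibited cells had the lowest values, and the confluent and starved arrays were mostly highest. It fell by 0.95 in contact-inhibited cells (adjusted p = 0.00222). The contact-inhibited mean of KIF6, 9.7, was under the filter's signal of 22.7, so it entered the test only through the groups where it was higher. KIF27, a relative of KIF7 that acts in motile cilia in the mouse, gave 23.9, 7.95 and 17.6 in the cycling arrays, 17.1, 36.5, 30.0 and 31.1 in the contact-inhibited arrays, 24.9, 21.4 and 30.9 in the serum-starved arrays, and 32.7, 33.7 and 38.5 in the confluent and starved arrays. Its confluent and starved arrays lay above its cycling arrays. Its cycling mean, 16.5, was under the filter's signal of 22.7, so it entered the test only through the arrested groups where it was higher. It rose by 0.68 in confluent and starved cells (adjusted p = 0.0182), a call lost without cycling replicate 2 or confluent and starved replicate 3 (adjusted p 0.0606 to 0.0736).

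KIF7, the kinesin of the cilium tip that tunes Hedgehog signalling, gave 129, 168 and 168 in the cycling arrays, 115, 133, 103 and 111 in the contact-inhibited arrays, 159.6, 162 and 143 in the serum-starved arrays, and 173, 179 and 151 in the confluent and starved arrays. Contact-inhibited arrays were low, with 1 of them inside the cycling range. It fell by 0.38 in contact-inhibited cells (adjusted p = 0.0434), a call lost without any 1 of 10 arrays (adjusted p 0.0529 to 0.141) and with the mean of its probe sets (change -0.08, adjusted p = 0.58). KIF24, which trims microtubules at the mother centriole and restrains the cilium, was dim, at 27.8, 21.5 and 41.0 in the cycling arrays, 25.8, 18.1, 18.9 and 27.1 in the contact-inhibited arrays, 17.9, 29.8 and 30.1 in the serum-starved arrays, and 17.4, 18.5 and 20.7 in the confluent and starved arrays. The groups overlap and it was not called (adjusted p = 0.248, 0.653 and 0.104). KIF2A, a depolymeriser of spindle and interphase microtubules, was not called on its brightest probe set, with changes of -0.07, -0.25 and -0.24, while a second probe set fell, with changes of -0.59, -0.69 and -0.95 (adjusted p = 0.0101, 0.0124 and 0.000889). KIF2B and KIF9 gave no call on their brightest probe sets, and a second KIF9 probe set rose by 1.01 in contact-inhibited cells (adjusted p = 0.0101). KIF2A, KIF24 and KIF27 are genes of the Z chromosome, the sex chromosome of which male birds carry a pair, and the W-linked HINTW differed between the groups. What that difference contributes to these 3 genes was not tested.

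**Figure D4:**
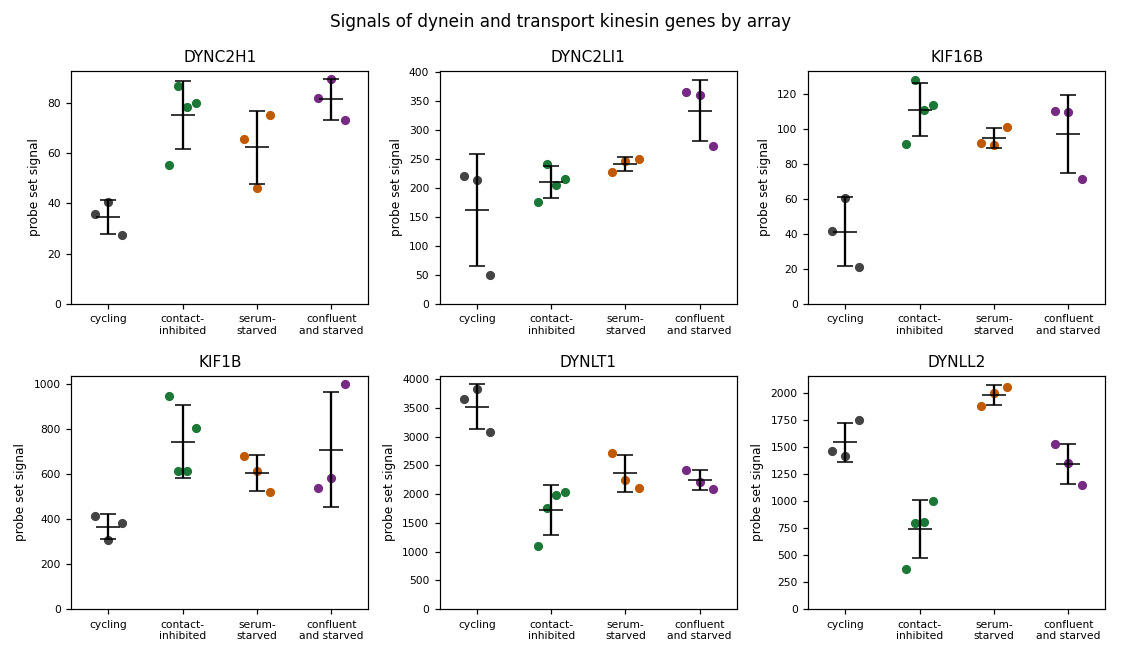
Signal of 2 dynein 2 genes, 2 transport kinesins and 2 dynein light chains on each array, on linear axes from 0; points are arrays, long bars the group mean and short bars 1 SD. DYNC2H1, KIF16B and KIF1B are higher in all arrested arrays than in the cycling ones, and DYNLT1 and DYNLL2 are lowest in the contact-inhibited arrays.

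Dynein 1, the cargo and spindle motor of the cytoplasm, gave few calls. They covered 20%, 0% and 20% of its 5 genes in the 3 arrested groups, where 34.8%, 16.7% and 29.7% of all tested probe sets were called. DYNC1H1, its heavy chain, gave 2409, 2271 and 2893 in the cycling arrays, 1858, 2258, 2810.4 and 3569.8 in the contact-inhibited arrays, 2938, 2806 and 2787 in the serum-starved arrays, and 3451, 2781 and 3366 in the confluent and starved arrays. The groups overlap, and the changes of 0.02, 0.18 and 0.34 did not pass (adjusted p = 0.942, 0.573 and 0.196). The intermediate chains DYNC1I1 and DYNC1I2, which hold cargo adaptors, had changes of -0.22 to 0.32 and no call. DYNC1LI1, a light intermediate chain that contacts adaptors, gave 1116, 1268 and 1284 in the cycling arrays, 765, 925, 839 and 961 in the contact-inhibited arrays, 1178, 1155 and 1149.6 in the serum-starved arrays, and 1169.8, 1107 and 1190.0 in the confluent and starved arrays. It fell by 0.48 in contact-inhibited cells (SE 0.10, adjusted p = 0.00300), where every array was under every array of the other groups. Its sister DYNC1LI2 gave 1219, 1272 and 1258 in the cycling arrays, 969, 1083, 1203 and 1249 in the contact-inhibited arrays, 1379, 1384 and 1419 in the serum-starved arrays, and 1743, 1456 and 1599.7 in the confluent and starved arrays. The confluent and starved arrays were above all others. It rose by 0.35 in confluent and starved cells (adjusted p = 0.0344), a call lost without any 1 cycling array or confluent and starved replicate 1 or 3 (adjusted p 0.0569 to 0.133) or with arrays centred (0.25, adjusted p = 0.183).

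Of the 5 dynein light chains, small subunits shared with other complexes, DYNLT1, a Tctex-type chain, gave 3661, 3829 and 3079.7 in the cycling arrays, 1099, 1767, 1985 and 2032 in the contact-inhibited arrays, 2715, 2255 and 2113 in the serum-starved arrays, and 2429, 2203 and 2098 in the confluent and starved arrays. All arrested arrays were under all cycling arrays. DYNLT1 fell by 1.06 in contact-inhibited cells (SE 0.18, adjusted p = 0.000598) and by 0.64 in confluent and starved cells (SE 0.20, adjusted p = 0.0240), and had a change of -0.58 ± 0.20 in serum-starved cells (adjusted p = 0.0602). The call in confluent and starved cells was lost without cycling replicate 1 or 2 or confluent and starved replicate 2 or 3 (adjusted p 0.0624 to 0.0753), and serum-starved cells gained one without cycling replicate 3 (adjusted p = 0.0471) or contact-inhibited replicate 1 (adjusted p = 0.00419). The mean of all DYNLT1 probe sets also gave a serum-starved call (-0.74, adjusted p = 0.0237). DYNLL2, an LC8-type hub chain, gave 1460.2, 1417 and 1746 in the cycling arrays, 367, 799, 806 and 1003 in the contact-inhibited arrays, 1876, 2001 and 2057 in the serum-starved arrays, and 1525, 1348 and 1149 in the confluent and starved arrays. All contact-inhibited arrays were under the rest, replicate 1 most of all, and DYNLL2 fell there by 1.12 (SE 0.25, adjusted p = 0.00372), and by 0.72 without that array and cycling replicate 3 (adjusted p = 0.000595). Its changes of 0.36 and -0.20 in the starved groups did not pass (adjusted p = 0.399 and 0.612). DYNLT3, the other Tctex-type chain, gave 653, 707 and 748 in the cycling arrays, 833, 972, 956 and 926 in the contact-inhibited arrays, 572, 687 and 690.3 in the serum-starved arrays, and 679, 699 and 712 in the confluent and starved arrays. The contact-inhibited arrays were above all others. It rose by 0.38 in contact-inhibited cells (adjusted p = 0.0155), a call lost without cycling replicate 1 (adjusted p = 0.0626), with arrays centred on their median (0.27, adjusted p = 0.135) and with the mean of both DYNLT3 probe sets (0.10, adjusted p = 0.517). The second DYNLT3 probe set gave -0.18. The roadblock-type chains DYNLRB1 and DYNLRB2 were not called.

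Set side by side, the routes of arrest differed in the spindle motors and in the tubulins, in opposite directions. Serum-starved cells against contact-inhibited cells had 8 of 61 genes lower and 9 higher, where 19.3% of all tested probe sets were called, 7.5% lower and 11.8% higher. Among the dividing-cell kinesins 6 of 11 were lower and none higher, with a median difference of -0.64. Among the tubulins 6 of 11 were higher and none lower, with a median difference of 0.54. KIF20A was lower in serum-starved than in contact-inhibited cells, with a difference of -1.15 (SE 0.13, adjusted p = 5.98e-05), and KIF2C had a difference of -1.15 ± 0.11 (adjusted p = 1.18e-05). KIF18A, which was not called against cycling cells, had a difference of -0.81 (adjusted p = 0.0118), a call lost without serum-starved replicate 2 (adjusted p = 0.0657). DYNLL2 was higher by 1.48 (SE 0.25, adjusted p = 0.00105) and TUBB2A by 1.34 (SE 0.26, adjusted p = 0.00259), both with contact-inhibited replicate 1 far under its group and both called without it. TUBB6, TUBB2B and TUBA1A were higher by 1.10, 1.08 and 0.94 (adjusted p = 0.00240, 0.00110 and 0.000231). KIFC2, a minus-end motor, had a difference of -0.71 (adjusted p = 0.00802). The other 2 tubulin calls, TUBA3E and TUBA8B, were lost without any 1 of 10 and 6 arrays (adjusted p 0.0507 to 0.107 and 0.0674 to 0.105). Of the dividing-cell calls, that of KIFC1 was lost without any 1 of 4 arrays (adjusted p 0.0545 to 0.148) and that of KIF20B without serum-starved replicate 3 (adjusted p = 0.0693). Without contact-inhibited replicate 1 and cycling replicate 3, 9 of the 11 dividing-cell kinesins were lower. The share of all probe sets was not counted for that fit.

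Serum removal could be followed in growing cultures (serum-starved against cycling) and in confluent ones. In confluent cells, confluent and starved against contact-inhibited, 12 of 61 genes fell and 9 rose, where 17.2% of all tested probe sets were called, 6.59% lower and 10.6% higher. In these cells 9 of 11 dividing-cell kinesins fell, with a median of -0.94, and 4 of 11 tubulins rose, with a median over all 11 of 0.13. KIFC1 fell by 1.51, KIF2C by 1.48 and KIF20A by 1.41 (adjusted p = 0.000280, 1.43e-06 and 1.24e-05). The calls of KIF4B and KIF18B were lost without contact-inhibited replicate 3 or confluent and starved replicate 2 or 3 (adjusted p 0.0548 to 0.0915) and without confluent and starved replicate 2 (adjusted p = 0.0613). TUBB6, TUBB2A, TUBB2B and TUBA1A rose by 1.17, 1.01, 0.78 and 0.73 (adjusted p = 0.00196, 0.0166, 0.0106 and 0.00167), and the TUBB2A call was lost without confluent and starved replicate 2 or 3 (adjusted p 0.0526 to 0.0615). KIF6 rose by 1.33 and KIF26A fell by 1.26 (adjusted p = 0.000455 and 0.0119). The contact-inhibited mean of KIF6 was under the filter's signal. The changes with serum removal in growing and in confluent cultures use no array in common. All 11 dividing-cell kinesins were negative in both, and Pearson's r between the changes was 0.60 across the 61 genes and 0.72 across the 11 dividing-cell kinesins, a description over genes that share arrays and are not independent. Of the tubulins, 3 were negative in both and 5 positive in both. Neither the signs nor r were computed over all tested probe sets. These values therefore have no background to be set against.

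The 2 starved groups were separated by few calls. Between confluent and starved and serum-starved cells 1 of 61 genes was called, where 0.962% of all tested probe sets were, 0.478% lower and 0.485% higher. It was KIF11, which was lower in confluent and starved cells, with a difference of -0.68 (SE 0.14, adjusted p = 0.0421). That call was lost without any 1 of 10 arrays (adjusted p 0.0613 to 0.179). The median difference of the 11 dividing-cell kinesins was -0.33, with 10 of 11 negative, and that of the 11 tubulins was -0.22, with 9 of 11 negative. The median of all tested probe sets was 0.003, and the share of them that was negative was not counted. Apart from KIF11 none of these genes was called, so the signs do not show a further fall.

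A test of whether serum removal acted differently in confluent and in growing cultures, the interaction, called 8 of 61 genes, 6 higher and 2 lower, where 10.8% of all tested probe sets were called, 5.96% higher and 4.85% lower. A positive value means that serum removal raised the gene more, or lowered it less, in confluent cells. TUBA1A, with an interaction of 1.25 ± 0.19 (adjusted p = 0.00118), fell with serum removal in growing cultures and rose with it in confluent cells. TUBB6 and TUBB2B had interactions of 1.14 ± 0.31 and 1.08 ± 0.27 (adjusted p = 0.0305 and 0.0219), with a rise called in confluent cells and no call in growing cultures. TUBG1 and DYNLT1 had 0.71 ± 0.19 and 0.99 ± 0.27 (adjusted p = 0.0317 and 0.0306). KIF6 had 1.68 ± 0.29, KIF16B -1.19 ± 0.32 and KIF26A -1.57 ± 0.45 (adjusted p = 0.00265, 0.0287 and 0.0393). In contact-inhibited cells, which enter that test, the mean of KIF6 was under the filter's signal. No dividing-cell kinesin was called for the interaction, KIF4B coming nearest with 0.80 ± 0.29 (adjusted p = 0.0957). The interaction of TUBA1A was called under every alternative setting, and that of KIF6 under every setting but the filter at the median signal, which left KIF6 untested, and the other 6 were lost without any 1 of 2 to 8 arrays, with adjusted p of 0.0587 to 0.0624 for TUBB2B, 0.0545 to 0.0764 for TUBB6, 0.0513 to 0.0841 for TUBG1, 0.0601 to 0.0813 for DYNLT1, 0.0528 to 0.0719 for KIF16B and 0.0622 to 0.0883 for KIF26A.

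**Figure D5:**
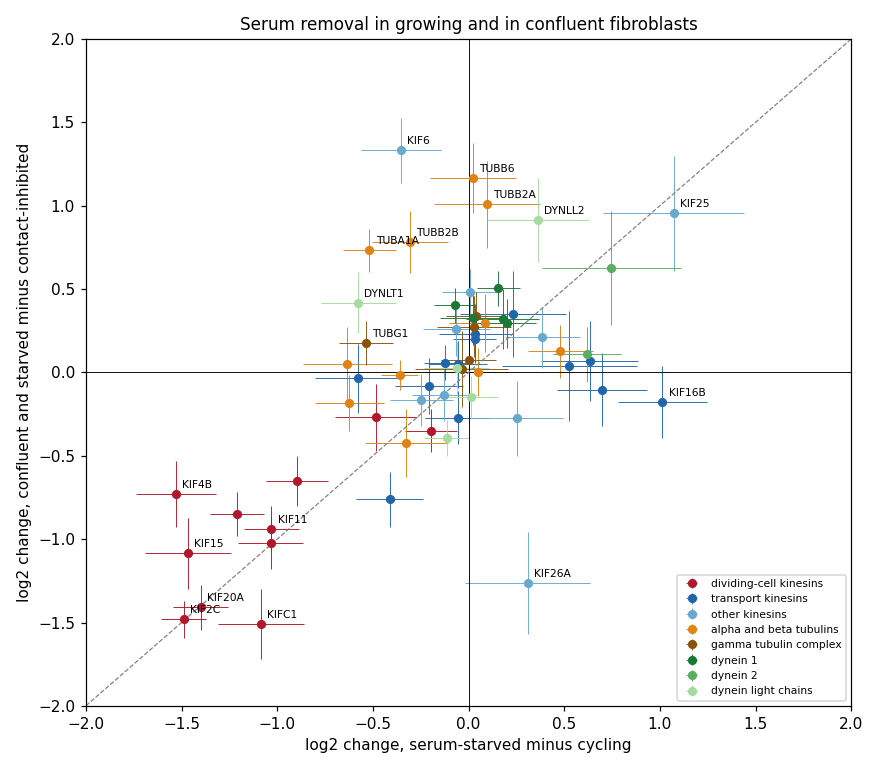
Each point is 1 of the 61 genes, with the log2 change on serum removal in growing cultures on the horizontal axis and in confluent cells on the vertical axis; bars are standard errors, colours roles, and the dashed line marks equal change. The 11 dividing-cell kinesins lie in the lower left, and TUBA1A, TUBB2B, TUBB2A, TUBB6 and KIF6 lie above the line.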

How the data were processed

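RNA of 13 chicken embryo fibroblast cultures was hybridised to Affymetrix chicken arrays. Per the submitters' processing notes, the authors' values came from PLIER in Affymetrix Expression Console 1.1; the deposited values are intensities on a linear scale, and their scaling is not given in the sources used here. Of 38535 probe sets, 842 whose identifiers lack the chicken prefix were not used. Of the 37693 chicken probe sets, 27166 had 1 gene symbol, 177 had several and 10350 had none; RefSeq was used for names only, and all 65 member symbols were unchanged in it. The deposited intensities were turned into log2(intensity + 16), and 28270 probe sets above the 25th percentile of the mean log2 value (a signal of 22.7) were tested. Group means were fitted over all 13 arrays with limma 3.58.1 (lmFit, eBayes with trend) in R 4.3.3, with Benjamini-Hochberg adjustment over all tested probe sets and a threshold of 0.05. Tables and plots were made with Python 3.11.15, numpy 2.4.6, pandas 2.3.3 and matplotlib 3.10.9. The procedure was tested on simulated data. The members, the role classes and the lists of partner and marker genes were chosen with earlier results of these data known. Values in every array are given for a preset group of genes, where measured, and for up to 4 genes per role class with the largest called change and no overlap with cycling arrays; from each partner list up to 3 called genes with the smallest adjusted p per comparison are named. Replicate numbers did not pair the arrays: deviations of same-numbered arrays correlated at -0.29 to 0.38 over 18 pairs. The number of arrays limits the precision. Alternatives were other scalings, offsets, filters, variance priors, array weights, the mean of a gene's probe sets, fits on the compared arrays, a replicate block, and leaving out arrays.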

Additional observations from a re-analysis of the deposited data

Results flagged for a closer look

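In 3 genes 1 contact-inhibited array stood far from the other 3, by a gap divided by the group's range above Dixon's critical value. For KIF5B, replicate 2 was high at 659 against 522 to 528 in the others, a ratio of 0.945. For KIF6, replicate 1 was low at 3.61 against 11.5 to 11.8, a ratio of 0.969. For TUBB2A, replicate 1 was low at 872 against 2148 to 2323, a ratio of 0.920. Chance gives such a gap in about 1 in 20 groups, and all 61 genes were looked at.

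By the interaction test in limma, the effect of serum removal differed between confluent and growing cultures for 8 of 61 genes. Of all tested probe sets, 10.8% were called in that test. Only the calls of KIF6 and TUBA1A held under every alternative that gave a value. The contact-inhibited mean of KIF6 was under the filter's signal. The interaction was positive for KIF6 at 1.68, TUBA1A at 1.25, TUBB6 at 1.14, TUBB2B at 1.08, DYNLT1 at 0.99 and TUBG1 at 0.71, with adjusted p of 0.00265, 0.00118, 0.0305, 0.0219, 0.0306 and 0.0317. It was negative for KIF26A at -1.57 and KIF16B at -1.19, with adjusted p of 0.0393 and 0.0287.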

How the results depend on the processing

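Calls against cycling cells held under every alternative that gave a value for 21 of 28 genes in contact-inhibited, 8 of 15 in serum-starved and 17 of 27 in confluent and starved cells. They held for 10 of 17 between serum-starved and contact-inhibited cells, 14 of 21 between confluent and starved and contact-inhibited cells, 0 of 1 between the starved groups, and 2 of 8 for the interaction. Over 3233 values of single genes under alternatives, 2976 kept direction and side of the threshold, 222 lost the call, 31 gained one and 4 turned sign. The values that turned sign were -0.0584 for DYNC2LI1 in contact-inhibited cells without cycling replicate 3, 0.0384 for KIF2C in contact-inhibited cells with the mean of its probe sets, and -0.039 for KIF5B in serum-starved cells without cycling replicate 3, alone or with contact-inhibited replicate 1. With 1 array left out these values ran from -0.0584 to 0.861 for DYNC2LI1 and from -0.039 to 0.889 for KIF5B. The cause was not tested. Among the genes whose values were followed here, the filter at the median left KIF6, KIF27, TUBB1 and DYNC2H1 untested. KIF14, KIF21B, KIF24, KIF2B, TUBAL3, TUBB3 and DYNC1I1, which were dimmer than DYNC2H1, were left untested too.

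Between the 2 starved groups the count of called genes, 1, became 0 with arrays centred on their median, an offset of 64, no filter, the mean of probe sets or the replicate block, 2 with quantile normalization, 4 with only the compared arrays, 15 with array weights and 10 without cycling replicate 3 and contact-inhibited replicate 1. The count of dividing-cell kinesins, 1, became 0 with centring, an offset of 64, no filter, the mean of probe sets or the block, 5 with array weights and 3 without those 2 arrays. The interaction gave 17 genes with array weights. Between the 2 starved groups, 120 of all tested probe sets were called higher and 103 lower with centring, and 113 and 192 with quantile normalization. Under the alternatives other than these scalings, the share of all probe sets called was not counted. The counts of genes there, also with 1 array left out, have no background to be set against. With 1 array left out, the called genes numbered 25 to 31, 10 to 19, 21 to 27, 12 to 22, 15 to 22, 0 to 5 and 2 to 9 in the order above, and the dividing-cell kinesins that were lower 5 to 7, 9 to 10, 9, 4 to 7, 7 to 9, 0 to 1 and 0.

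With the replicate block 26, 14, 26, 13, 20, 0 and 6 genes were called, and 4 of 12 arrays correlated best with their own number. For the block, too, the share of all probe sets called was not counted. Centring each array moved the median of all probe sets against cycling cells from 0.07, 0.05 and 0.05 to -0.05, -0.07 and -0.05, and the share of calls that were higher from 54.1%, 60.8% and 59.1% to 41.6%, 45.4% and 48.8%. No named call turned direction under either scaling. Of 37 genes with another tested probe set, 19, 10 and 18 were called in the 3 arrested groups, and another probe set was called the same way in 10, 8 and 13 and the opposite way in 1, 0 and 1, which was TUBA5. Signals near the filter limit what dim genes such as KIF24, KIF6 and DYNC1I1 can show.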
